A study of Arabidopsis thaliana and Oryza sativa and Cucumis sativus with 30 samples.

Results

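Root hairs sieved from soybean (Glycine max, variety Williams 82) were measured by RNA sequencing in 3 libraries, numbered 1 to 3, out of 30 in the study. The members are these 3 libraries and the 16652 genes that the soybean table lists, each with a mean of at least 3 FPKM (fragments scaled to transcript length and to the mapped fragments of the library). The study sieved root hairs from other plant species in the same way, and these libraries are used here to set the soybean profile beside them. Surface-sterilized seeds were germinated on agarose-solidified MS medium in constant light at 22 °C, and the seedlings were taken 4 to 5 days after plating. Root tissue was stirred in liquid nitrogen so that the brittle hairs broke off, the hairs were collected through a sieve, and libraries were made with the SMART-Seq v4 kit. No mutation, treatment or rhizobial inoculation is named for these libraries. The study's description calls the libraries biological replicates, and the number of seedlings behind each was not found in the sources used here.

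A root hair is a tubular outgrowth of a single root epidermal cell that extends at its tip, where vesicles deliver new membrane and wall material. Root hairs enlarge the surface through which a plant takes up water and ions, and in legumes such as soybean they are also where rhizobia commonly enter the root to start nodulation. The soybean genome carries the remains of ancient whole-genome duplications, so many of its genes have a close copy on another chromosome, and others lie in tandem arrays. A soybean gene ID of the kind used here gives the chromosome in the digits after GLYMA and then a number that runs along that chromosome, so that GLYMA12G06101 and GLYMA12G06111 lie near each other on chromosome 12. The soybean table pairs no ID with a gene name or function, so genes are given by ID alone. For the same reason the label "root hair" could not be set against known root hair genes, and the part that fragments of other root cells may have in any level was not tested. In bulk samples such as these, a difference in the number of cells of a type and a difference in RNA per cell cannot be told apart.

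Library 2 stood apart from the other two. Across the 16652 genes, Pearson's r of log2(FPKM + 1) was 0.809 between libraries 1 and 3, 0.688 between libraries 1 and 2, and 0.645 between libraries 2 and 3. These correlations describe the libraries, since genes are not independent replicates. Between libraries 1 and 3, 3186 genes (19.1%) differed by at least 1 on the log2 scale. That count was 5988 (36.0%) between libraries 1 and 2 and 7544 (45.3%) between libraries 2 and 3. Library 2 also listed the most genes at 0 FPKM, 218 against 41 in library 1 and 123 in library 3. The FPKM of the listed genes summed to 615130 in library 1, 713359 in library 2 and 647637 in library 3, and the median gene stood at 9.92, 9.44 and 8.47 FPKM. The read depth behind these values is unknown, since the table holds no counts, so no counting interval is given. The part of depth, RNA quality or tissue purity in the differences between libraries was not tested.

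A single gene led the soybean root hair profile in every library. GLYMA12G06111, on chromosome 12, was at 30157 FPKM in library 1, 23740 in library 2 and 84644 in library 3, a mean of 46180 ± 33465 (SD, n = 3). It held 4.90% of the summed FPKM in library 1, 3.33% in library 2 and 13.1% in library 3. Its rank was thus the same in all 3 libraries, while its level in library 3 lay far above the other two. The gene next in mean level, GLYMA10G35080, was at 6696, 17111 and 13912 FPKM in libraries 1, 2 and 3, lowest in library 1.

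The RNA was concentrated in few genes. The 10 genes with the highest mean held 13.7% of the summed FPKM in library 1, 14.9% in library 2 and 25.3% in library 3, which is 18.0 ± 6.38% (SD, n = 3). The 100 highest held 35.9%, 36.2% and 46.1%, and the 1000 highest held 61.6%, 64.6% and 68.0%. Library 3 had the largest share at each of these depths, and libraries 1 and 2 lay closer to each other than either did to library 3. With genes ranked within each library, reaching 50% of the sum took 347 genes in library 1, 277 in library 2 and 131 in library 3. With GLYMA12G06111 left out of both the genes and the sum, the next 10 genes held 10.1%, 12.8% and 15.1%, and 432, 318 and 265 genes reached 50%. The order of the libraries by concentration was the same without that gene, with a narrower spread.

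**Figure D1:**
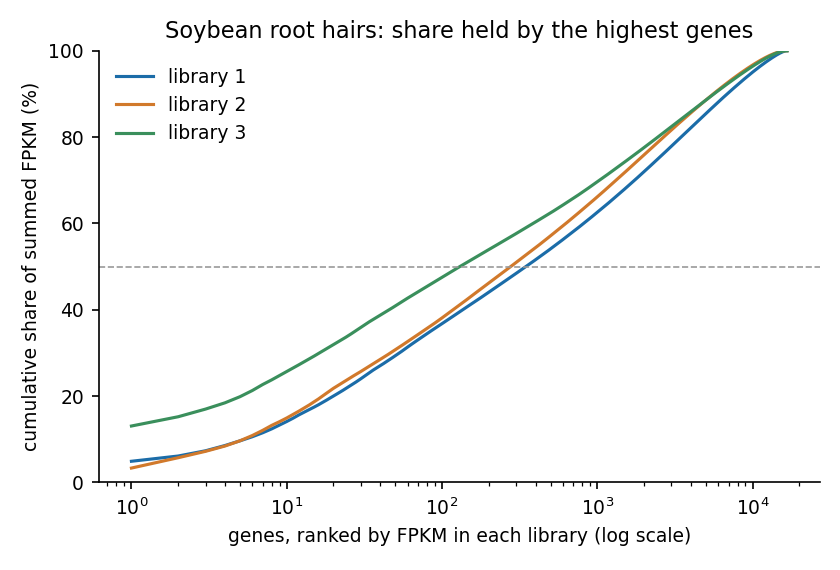
Share of the summed FPKM (%) held by the highest genes, against the number of genes on a log axis, with 1 line for each of the 3 soybean libraries. Genes are taken in order of FPKM within each library. Library 3 starts at 13.1% with a single gene, where libraries 1 and 2 start at 4.90% and 3.33%, and lies above both at 10, 100 and 1000 genes.

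Most of the listed genes were near the lower bound of the table. Of the 16652, 8576 (51.5%) had a mean between 3 and 10 FPKM and together held 7.44% of the summed mean. Another 7279 had a mean between 10 and 100, and 730 between 100 and 1000. The 67 genes at 1000 or more were 0.402% of the list and held 35.3% of the sum. The median of the means was 9.58 FPKM. The 100 genes nearest the bound had means from 3.00 to 3.04 FPKM, and genes with a mean under the bound were not analysed here.

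The highest genes were largely shared between libraries. Of the 10 highest genes of each library, 8 were among the 10 of all 3 libraries. Of the 20 highest, 15 were shared by all 3, of the 100 highest 62, and of the 1000 highest 619. At 100 genes, libraries 1 and 3 shared 77, libraries 1 and 2 shared 66, and libraries 2 and 3 shared 65. The leading genes were thus shared in larger proportion at 10 and 20 genes than at 100 or 1000.

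The 20 genes with the highest mean held 24.0% of the summed mean, and their spread over the 3 libraries differed widely. The range of a gene, its highest minus its lowest log2(FPKM + 1) over the 3 libraries, ran from 0.19 to 1.83 among them. It was below 1 for 12 of the 20 and at 1 or more for the other 8. None of the 20 was highest in library 1, and 10 each were highest in libraries 2 and 3. Library 1 held the lowest value for 15 of them, library 2 for 2 and library 3 for 3.

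Among these 20, several genes kept nearly the same level throughout. GLYMA02G01970 was at 4991, 5278 and 5699 FPKM in libraries 1, 2 and 3 (mean 5323 ± 356 SD, range 0.19). GLYMA15G21890 was at 3147, 3387 and 3595 FPKM, also with a range of 0.19. GLYMA18G02870 was at 5555, 5986 and 6576 FPKM, with a range of 0.24. These are the 3 of the 20 with a range below 0.25. GLYMA11G35560 (3898, 4645 and 4344 FPKM) and GLYMA17G14620 (3625, 4321 and 3940 FPKM) were just outside that bound, each with a range of 0.25 after rounding. GLYMA10G02090 was at 7491, 8210 and 9393 FPKM, with a range of 0.33.

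A second set of the 20 stood higher in library 2 than in the other two. GLYMA10G35090 was at 3312, 8666 and 5424 FPKM in libraries 1, 2 and 3. GLYMA08G38740 was at 2887, 5871 and 2601 FPKM, and GLYMA01G03070 at 2441, 4950 and 2407. In these last 2 genes, libraries 1 and 3 lay close together and library 2 lay a little above their sum. Library 2 was also highest for GLYMA02G04511 (4765, 8541 and 5084 FPKM) and GLYMA20G32462 (2137, 4722 and 2902 FPKM). GLYMA03G26060 was at 3300, 5567 and 2953 FPKM, and GLYMA03G34310 at 5825, 10553 and 9035.

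Other genes of the 20 followed the leading gene in being highest in library 3. GLYMA12G06101 was at 5522, 6246 and 11481 FPKM (mean 7750 ± 3252 SD, range 1.06). GLYMA11G14141 was at 2029, 3167 and 4594 FPKM, and GLYMA03G04880 at 4770, 3955 and 6990. The last of the 20 to be named, GLYMA07G37265 and GLYMA07G37270, had identical values in each library, 7465, 8718 and 9206 FPKM. Their mean was 8463 ± 898 (SD, n = 3).

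**Figure D2:**
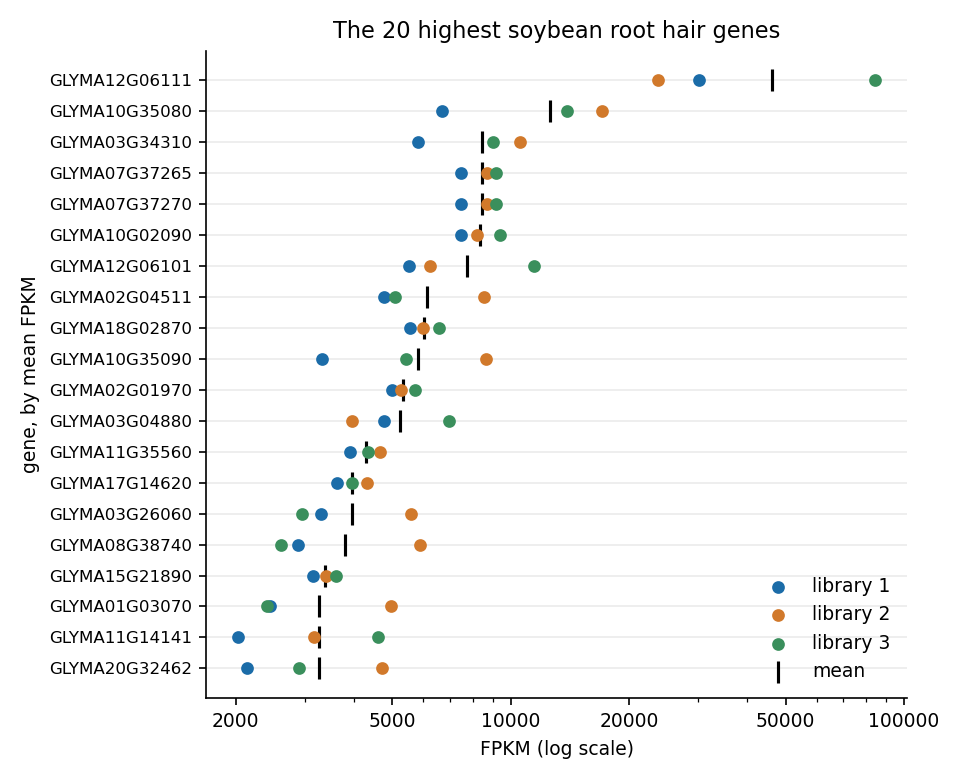
FPKM on a log axis of the 20 soybean genes with the highest mean, with 1 point for each of the 3 libraries and a bar at the mean. GLYMA12G06111 lies to the right of all others in every library, and the points of GLYMA02G01970 and GLYMA15G21890 lie close together.

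Identical values were a property of the table beyond that pair. In all, 291 genes (1.75%) shared their values in all 3 libraries with another gene, in 144 sets of 2 genes and 1 set of 3. Of the 145 sets, 143 lay on a single chromosome. The rest carry scaffold IDs, GLYMA1000S00200 with GLYMA1000S00300 and GLYMA1235S00200 with GLYMA1235S50. On the chromosomes, 109 sets had ID numbers within 10 of each other, and the largest distance was 33. These genes form the last 291 lines of the table, out of the order of the rest. Their median level was 6.89 FPKM, and the highest after GLYMA07G37265 and GLYMA07G37270 were GLYMA17G23865 and GLYMA17G23870, at a mean of 707. The repeated lines held 1.70% of the summed FPKM in library 1, 1.83% in library 2 and 1.82% in library 3. Whether such a pair is 1 locus given 2 IDs or 2 genes given 1 estimate is not stated in the sources used here, so the number of genes behind such values is uncertain. Below, counts of neighbours and runs take each ID as a gene, and comparisons of neighbours by distance leave pairs of identical values out.

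Across all 16652 genes the median range over the 3 libraries was 1.12 on the log2(FPKM + 1) scale, with quartiles of 0.66 and 1.83. Genes with a range below 0.25 are here named steady and genes with a range of 2 or more variable. By these bounds 794 genes (4.77%) were steady and held 6.17% of the summed mean, and 3530 (21.2%) were variable and held 13.3%. The share of variable genes was 24.4% among genes with a mean of 3 to 10 FPKM. It was between 17.3% and 20.7% in the classes from 10 to 1000 FPKM, and 5.97% (4 of 67) at 1000 or more. The median range was 1.22 in the lowest class, between 0.97 and 1.03 in the classes from 10 to 1000 FPKM, and 0.89 at 1000 or more. Genes of the lowest class were thus the most often variable, and those at 1000 FPKM or more the least often.

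The steadiest genes were sought among those with a mean of at least 30 FPKM, so lower genes of equal steadiness are not named. There, the smallest range was that of GLYMA11G08290, at 37.2, 36.9 and 37.2 FPKM in libraries 1, 2 and 3. GLYMA08G17230 was at 320.1, 320.8 and 315.9 FPKM, and GLYMA15G42762 at 493.9, 504.9 and 504.7. GLYMA16G06900 was at 74.0, 73.6 and 72.4 FPKM. On FPKM as deposited, all 10 of the steadiest genes at this level had ranges of 0.01 to 0.05, smaller than the differences between the library medians. The other six were GLYMA17G15380, GLYMA10G33960, GLYMA18G38014, GLYMA07G05250, GLYMA13G20790 and GLYMA17G38140, with values between 32.4 and 64.1 FPKM. Such small ranges were found only without scaling between libraries. With libraries scaled to equal sums, the ranges of these 10 genes were 0.18 to 0.24. With median-of-ratios scaling they were 0.15 to 0.23. All 10 were still steady under both scalings, but GLYMA11G08290 no longer had the smallest range among them. On FPKM as deposited, 191 genes at 30 FPKM or more were steady, at 100 or more 47, and at 1000 or more 5. Of those 5, the 2 not yet named were GLYMA17G14230 (1504, 1588 and 1599 FPKM) and GLYMA13G22650 (1065, 1052 and 996 FPKM), picked out after their values were seen.

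The most variable genes were high in a single library and far lower in the others. GLYMA13G35320 was at 5654 FPKM in library 1, 7.56 in library 2 and 1.13 in library 3, a range of 11.37 on the log2(FPKM + 1) scale. GLYMA11G02350 was at 2648, 0.656 and 0.449 FPKM, and GLYMA02G04820 at 2611, 0.794 and 0.434. In each of these 3 genes library 1 lay far above the other two. GLYMA13G39890 was at 2382, 8.59 and 0.460 FPKM, and GLYMA09G35840 at 882, 0.135 and 0.151. GLYMA06G15411 was at 590, 3.39 and 0.0641 FPKM. Of the 10 genes with the largest range and a mean of at least 10 FPKM, all but 1 were of this kind, and the exception was high in library 2. That gene, GLYMA13G22940, was at 0.875 FPKM in library 1, 984 in library 2 and 0.687 in library 3.

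A pair of these genes are neighbours on chromosome 15. GLYMA15G06780 was at 2307, 14.9 and 0.334 FPKM, and GLYMA15G06790, 10 ID numbers on, at 3185, 23.5 and 2.27. Both were high in library 1 alone.

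**Figure D3:**
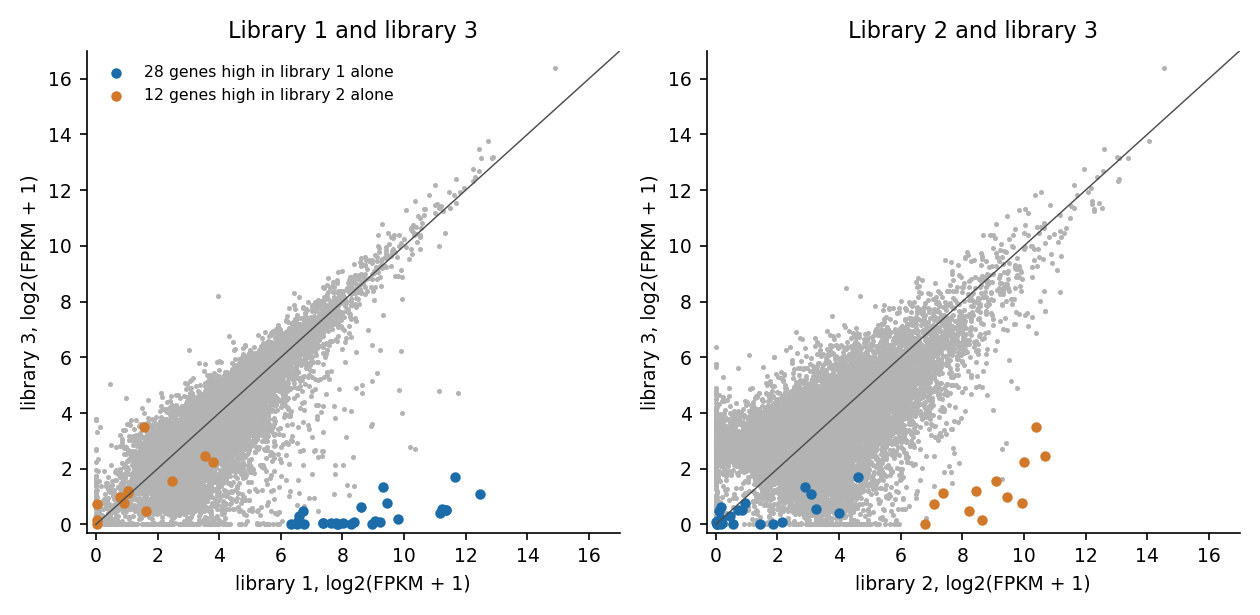
Level of each listed soybean gene, as log2(FPKM + 1), in library 3 against library 1 (left) and library 2 (right), with a diagonal of equal levels. Blue points are the 28 genes high in library 1 alone and orange points the 12 high in library 2 alone, which lie far below the diagonal in the left and right panel respectively.

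To count such genes, those whose highest library exceeded the next by at least 6 on the log2(FPKM + 1) scale, which is 64-fold, were collected by a rule chosen after their values were seen. Library 1 had 28, library 2 had 12 and library 3 had 0. The table's bound is on the mean of the 3 libraries, so a gene can be listed through its high library alone. An example is GLYMA17G35530, at 0.0209, 108.7 and 0.0219 FPKM in libraries 1, 2 and 3. The 28 genes of library 1 lay on 16 chromosomes, had a median of 319 FPKM there and at most 23.5 FPKM in either other library. They summed to 25676 FPKM, 4.17% of that library. The 12 genes of library 2 lay on 7 chromosomes, had a median of 468 FPKM there and at most 13.0 elsewhere, and summed to 7656 FPKM, 1.07% of that library. They include GLYMA05G04440 (10.5, 1631 and 4.47 FPKM) and GLYMA05G04490 (13.0, 1012 and 3.71 FPKM). On chromosome 17 the set holds GLYMA17G14860 (1.06, 163 and 1.19 FPKM), GLYMA17G14890 (0.709, 693 and 0.968) and GLYMA17G14930 (1.93, 1354 and 10.3). The few genes of this kind that lay within 50 ID numbers of the next were high in the same library as it. They are GLYMA15G06780 with GLYMA15G06790 in library 1, and the chromosome 5 and 17 genes just named in library 2. With 0 such genes in library 3, only libraries 1 and 2 could differ, and this agreement was not tested. Whether these signals come from the plants, from another tissue or from library preparation was not tested.

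With a gap of 3, which is 8-fold, the counts were 151 genes in library 1, 234 in library 2 and 6 in library 3. They held 7.10%, 2.92% and 0.0632% of their libraries. By the same gap, 2 genes were low in library 1 alone, 96 in library 2 and 52 in library 3. Library 1 thus held most of the signal that a single library carried, and libraries 2 and 3 held most of the genes low in a single library. Counts of high and of low genes are not set against each other, since the bound on the mean acts on them differently.

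Among all 3530 variable genes, 1618 (45.8%) were highest in library 2, 1040 (29.5%) in library 1 and 872 (24.7%) in library 3. The lowest value lay in library 3 for 1687 (47.8%), in library 2 for 1422 (40.3%) and in library 1 for 421 (11.9%). Library 2 was thus often at either end. Among the 67 genes at 1000 FPKM or more, the 4 variable ones were GLYMA13G35320, GLYMA15G06790, GLYMA08G45520 and GLYMA19G37000. GLYMA08G45520 was at 3443, 195 and 25.5 FPKM in libraries 1, 2 and 3. GLYMA19G37000 was at 384, 2307 and 325 FPKM.

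In all, 382 genes were listed at 0 in a library, and none of them in more than 1. The highest of these by mean was GLYMA13G36180, at 499.7 FPKM in library 1, 0.119 in library 2 and 0 in library 3. GLYMA11G10080 was at 332, 0 and 0.0567 FPKM, and GLYMA10G31780 at 307, 1.70 and 0. GLYMA08G46450 was at 229.9, 2.60 and 0 FPKM. All 4 of these genes carried their signal in library 1. GLYMA04G20640 was at 165, 0 and 52.7 FPKM, so that library 2 alone was at 0. A listed 0 may be an estimate that failed rather than an absence of fragments.

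Neighbours were sought through the ID numbers, which give the order of genes and not their likeness in sequence. A pair of neighbours is thus not known to be a tandem duplicate. Of the 16652 genes, 16613 carry a chromosome in their ID and 39 a scaffold. Most ID numbers, 90.0%, fall on steps of 10, so listed genes at most 10 apart are taken here as neighbours. By that bound there were 4925 neighbour pairs, and 8247 genes (49.6%) lay in 3322 runs of consecutive neighbours. Most runs, 2245, held 2 genes, 724 held 3 and 243 held 4, and 110 held 5 or more. Genes of low level that the table leaves out break such runs, and 110 of the pairs have identical values and may be 1 gene, so lengths can be too short or too long. With shared values counted once there were 4780 neighbour pairs.

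Neighbours differed in level about as much as consecutive genes further apart did. With the pairs of identical values left out, the median difference between neighbours was 1.18 on the log2(mean FPKM + 1) scale over 4815 pairs. For consecutive listed genes 11 to 20 ID numbers apart it was 1.20, for 21 to 50 apart 1.16, for 51 to 100 apart 1.19 and for those further apart 1.17. Spearman's rho of the 2 levels lay between -0.02 and 0.04 in these classes. The level of a gene thus told little of that of its neighbour, and 117 of the 4925 pairs differed by 5 or more on the log2 scale.

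The sharpest steps lay beside the most abundant genes. The make-up of the table largely fixes this. No listed mean is under 3 FPKM, so a large step needs a gene far above that bound. The low partner is common too, since 51.5% of the listed genes had a mean of 3 to 10 FPKM. GLYMA12G06111, at a mean of 46180 FPKM, is next to GLYMA12G06120, at 3.62 FPKM, a step of 13.29 on the log2 scale. GLYMA10G02090 (8365 FPKM) is next to GLYMA10G02080 (7.32 FPKM), and GLYMA10G35090 (5801 FPKM) is next to GLYMA10G35100 (4.91 FPKM). GLYMA03G34310 (8471 FPKM) is next to GLYMA03G34300 (11.6 FPKM), and GLYMA11G03690 (2675 FPKM) next to GLYMA11G03700 (3.54 FPKM). In each case a gene among the highest of the table lies beside one within 4 times its lower bound.

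The abundant genes themselves nevertheless lay side by side in places. Among neighbour pairs with at least 1 gene at a mean of 100 FPKM or more, both genes were at that level in 34 of 476 pairs (7.14%). The share was 3.24% at 11 to 20 ID numbers, 1.71% at 21 to 50, 3.66% at 51 to 100 and 0.962% beyond. At 1000 FPKM or more there were 4 neighbour pairs, 1 of them of identical values, picked out after their values were seen. GLYMA12G06101 and the leading gene GLYMA12G06111 are 1 of them, with a ratio of the first to the second of 0.183, 0.263 and 0.136 in libraries 1, 2 and 3. GLYMA10G35080 and GLYMA10G35090, the latter also among the 20 highest, kept a ratio of 2.02, 1.97 and 2.56. Both genes of that pair were lowest in library 1 and highest in library 2. GLYMA11G14131 (1061, 918 and 2502 FPKM) and GLYMA11G14141 had a ratio of 0.523, 0.290 and 0.545, and both were highest in library 3. The last pair is GLYMA07G37265 and GLYMA07G37270, with identical values. No sequences were compared, so whether the members of these pairs are copies of each other was not tested. How fragments that match more than 1 gene were assigned was not found in the sources used here. If members are alike in sequence, the split of signal within a pair is uncertain.

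Runs whose members all reached 100 FPKM numbered 14, and none was longer than 2 genes. Higher pairs are not among them where their runs go on to a gene below 100 FPKM. The run of GLYMA12G06101 and GLYMA12G06111 goes on to GLYMA12G06120 (3.62 FPKM), and that of GLYMA10G35080 and GLYMA10G35090 to GLYMA10G35100 (4.91 FPKM). Left out in the same way are GLYMA07G37265 with GLYMA07G37270, GLYMA11G14131 with GLYMA11G14141, GLYMA10G44360 with GLYMA10G44370 and GLYMA15G06780 with GLYMA15G06790. With each ID taken as a gene, the highest of the 14 by summed mean was GLYMA17G23865 with GLYMA17G23870. These had identical values of 274, 1645 and 202 FPKM in libraries 1, 2 and 3. Read as 1 measurement they would be no run, and the highest would be the next, on chromosome 14. GLYMA14G36690 (138, 281 and 72.7 FPKM) lies beside GLYMA14G36700 (981, 1216 and 471 FPKM). Both members of that run were highest in library 2 and lowest in library 3. GLYMA08G16301 (122, 279 and 97.4 FPKM) and GLYMA08G16310 (557, 710.0 and 453 FPKM) followed the same order. GLYMA15G38060 (386, 272 and 756 FPKM) and GLYMA15G38070 (127, 69.8 and 218 FPKM) were both highest in library 3 and lowest in library 2. GLYMA05G23220 (126, 201 and 134 FPKM) and GLYMA05G23230 (327, 415 and 443 FPKM) differed in their highest library.

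Where both neighbours were variable, the share of pairs with the same highest library was largest at the shortest distance. Of 253 such neighbour pairs, 134 (53.0%) had the same highest library, which was library 2 for 62, library 1 for 44 and library 3 for 28. The share was 44.1% (64 of 145) at 11 to 20 ID numbers, 41.2% (87 of 211) at 21 to 50, 40.2% (35 of 87) at 51 to 100 and 33.3% (17 of 51) beyond. Among all variable genes 45.8% were highest in library 2, 29.5% in library 1 and 24.7% in library 3. Many unrelated pairs would therefore share a highest library too, and the share expected for them was not computed. No test was made of the order by distance, since pairs along a chromosome are not independent. Strand was not stated for the counting, so fragments of overlapping neighbours could also enter both genes.

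**Figure D4:**
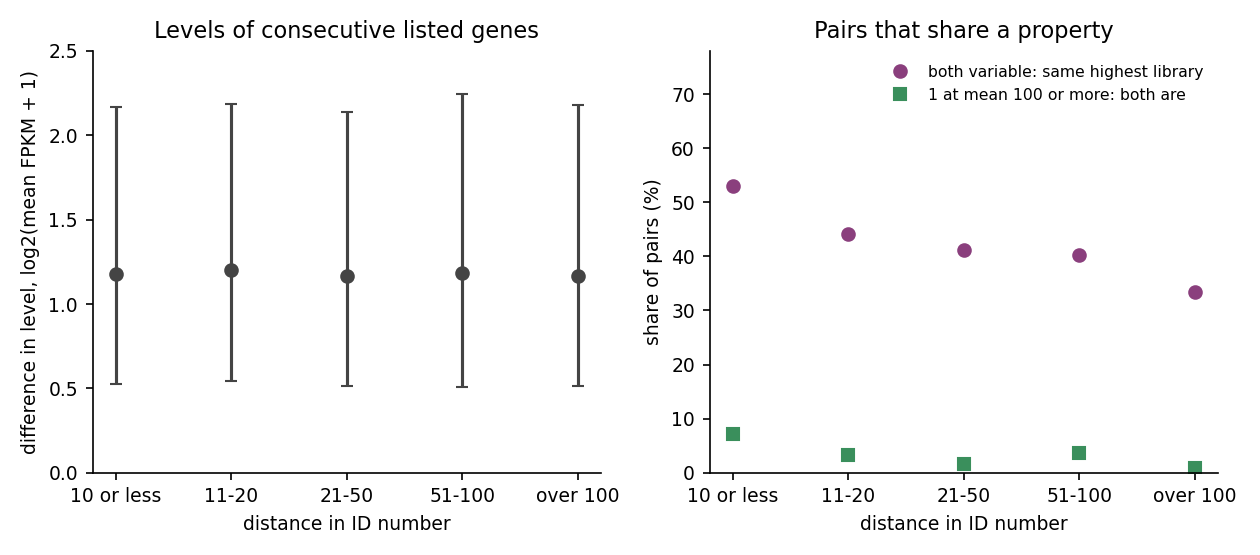
Consecutive listed soybean genes by distance in ID number, with pairs of identical values left out: left, median and quartiles of the difference in log2(mean FPKM + 1), and right, the share of pairs (%) that have a property in common. The median difference stays between 1.16 and 1.20, while the share of variable pairs with the same highest library goes from 53.0% at 10 or less to 33.3% beyond 100.

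The longest runs held genes of widely differing levels, with run medians of 13.3 to 25.3 FPKM. GLYMA06G09870 to GLYMA06G09950 held 10 genes with means of 6.80 to 100.3 FPKM, of which 2 were variable, the identical-valued GLYMA06G09930 and GLYMA06G09940. GLYMA10G38880 to GLYMA10G38960 held 9 genes with means of 5.45 to 129.7 FPKM, of which 1 was variable. GLYMA01G36711 to GLYMA01G36780 held 8 genes with means of 3.57 to 114 FPKM. In that run 4 genes were variable, all 4 highest in library 2.

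By chromosome, the listed genes ranged from 587 on chromosome 16 to 1202 on chromosome 8. Chromosome 12 held the largest share of the summed mean, 11.3%, which was 4.61% with GLYMA12G06111 left out. Without that gene the largest share was that of chromosome 10, at 9.30%. Of the 100 highest genes 12 lay on chromosome 11, 9 on chromosome 15 and 8 on chromosome 10. These chromosomes held 868, 802 and 922 of the 16613 listed genes with a chromosome in their ID. The counts of highest genes were not tested against those numbers. The place of chromosome 12 thus rested on a single gene.

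To set the concentration of the soybean libraries beside other species, the share of the summed FPKM held by the 10 highest genes was compared with that in root hairs sieved from 5 other plants, each in 3 libraries. The soybean libraries were at 13.7%, 14.9% and 25.3%. Arabidopsis was at 13.0%, 12.0% and 11.1%, rice at 13.0%, 10.7% and 8.85%, and tomato at 9.90%, 8.89% and 9.58%. Cucumber was at 10.3%, 8.17% and 9.48%, and maize at 7.92%, 9.29% and 8.57%. Every soybean library lay above every library of each other species, by a margin of under 1 percentage point over the highest Arabidopsis and rice libraries.

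The mean difference was 5.95 percentage points from Arabidopsis, 7.14 from rice, 8.52 from tomato, 8.66 from cucumber and 9.39 from maize. Each comparison gave p = 0.1 in a two-sided exact permutation test, 0.1 after Benjamini-Hochberg adjustment over the 5, which is the smallest p that 3 against 3 libraries allow. None therefore passed 0.05. Without soybean library 3 the differences were 2.28 from Arabidopsis, 3.47 from rice, 4.85 from tomato, 4.99 from cucumber and 5.72 from maize. With genes of identical values counted once, the difference from Arabidopsis was 9.18 and that from rice 6.94, so that rice and not Arabidopsis was the closest. With the highest gene of each table left out, the soybean and rice libraries overlapped, at a difference of 2.84. The tables were made separately, on different annotations and with the same bound on the mean, so these shares compare profiles and not the levels of genes.

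**Figure D5:**
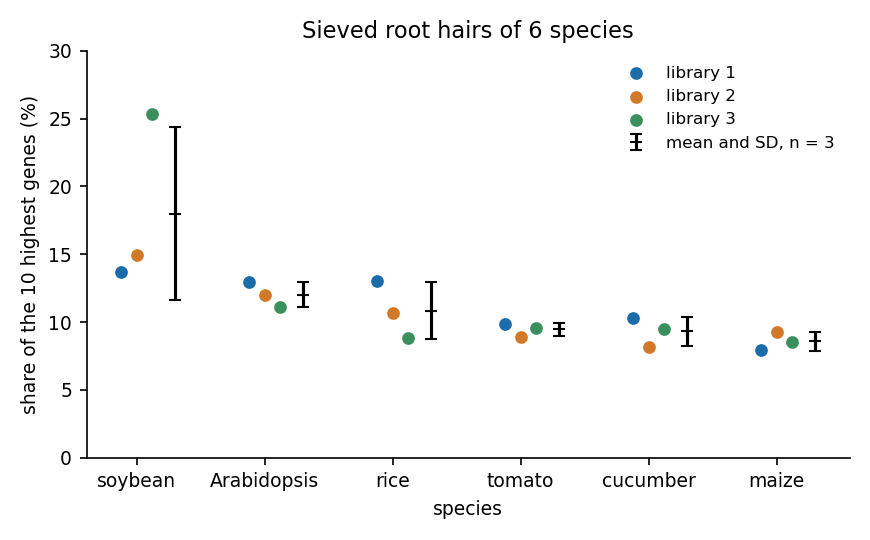
Share of the summed FPKM (%) held by the 10 highest genes of each sieved root hair table, with 1 point per library and the mean and SD of the 3 libraries of each species. The soybean points are at 13.7%, 14.9% and 25.3%, and library 3 is the farthest from all the rest.

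The soybean libraries were also less alike than those of most of the other species. The lowest and highest Pearson's r of log2(FPKM + 1) between libraries were 0.645 and 0.809 in soybean, 0.372 and 0.651 in Arabidopsis, and 0.891 or higher in cucumber, maize, rice and tomato. Variable genes made up 21.2% of the list in soybean, 49.2% in Arabidopsis, 8.73% in tomato, 6.05% in cucumber, 5.72% in rice and 3.13% in maize. Genes high in a single library by 64-fold, 40 in soybean, numbered 67 in Arabidopsis, 1 in rice and 0 in cucumber, maize and tomato. Soybean thus lay between Arabidopsis and the other four on these measures. These are descriptions of the libraries, and the differences between species in them were not tested.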

How the data were processed

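Soybean root hair RNA was sequenced in 3 libraries. The authors deposited FPKM values per gene, for genes whose mean over the libraries is at least 3; the submitters' processing notes name CASAVA 1.8.2, TopHat2 2.0.9 and Cufflinks, with no role or order, and the labels give the Ensembl Release 19 annotation. Read counts, depth, strand handling and the treatment of multiply mapped reads are not given in the sources used here. FPKM values were used as deposited, without further scaling, and gene differences were taken on log2(FPKM + 1), which understates changes of low genes.

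Shares, ranks, ranges over libraries and distances between ID numbers were computed in Python 3.11.15 with numpy 2.4.6, pandas 2.3.3 and scipy 1.17.1, and plotted with matplotlib 3.10.9. The code was checked on simulated data. Species were compared by a two-sided exact permutation test of library shares. Each p-value places the difference in mean share among all regroupings of the libraries, with the library as the unit.

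Genes were named by rule: the 20 highest by mean; the 10 largest ranges with mean at least 10; the 10 smallest ranges with mean at least 30; the 5 highest neighbour runs with all members at 100 or more; the 5 neighbour pairs furthest apart; and the 5 highest genes listed at 0 in a library. Members, lists and rules were chosen with earlier results of these data known. Lists of root hair genes and of other cell types were not run, because no soybean annotation was used here.

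Alternatives were equal library sums, median-of-ratios scaling, a pseudocount of 0.1, a mean of at least 10, a neighbour distance of 20, ranks per library, a replicate block and leaving out each library.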

Additional observations from a re-analysis of the deposited data

How the results depend on the processing

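Of the recomputed values not tied to a named gene, 89 kept their call or stayed close, 10 moved and 0 reversed. Close means counts within 1.5 times and other values within their spread. That spread is wide for the share of the 10 highest genes, with an SD of 6.38 percentage points in soybean. The difference from Arabidopsis counted as close though it went from 5.95 to 2.28 without soybean library 3. Settings in which soybean overlapped Arabidopsis or rice also counted as close, so the tally gives little assurance for the species differences. Among values of named genes, where GLYMA13G36180 enters by more than 1 rule, 250 kept or stayed close and 10 moved. Those 10 were ranges of variable genes with a library left out. The range of GLYMA11G02350 went from 10.84 to 0.19 without library 1, and that of GLYMA09G35840 from 9.60 to 0.02. With genes of mean at least 10 FPKM only, steady genes went from 794 to 462, variable genes from 3530 to 1438, neighbour pairs from 4925 to 1299 and their median log2 difference from 1.14 (identical pairs included) to 0.96; fewer genes enter that setting. With a neighbour distance of 20 there were 8280 pairs. Leaving out a library gave 2543 to 5021 steady and 822 to 2708 variable genes, since a range over 2 libraries is smaller; without library 2 the variable genes were 822. With a pseudocount of 0.1, steady genes were 669 and variable genes 4525. The share of variable neighbour pairs with the same highest library was 47.1% to 54.4% under other scalings and that pseudocount, against 53.0%. Pairs further apart were not recomputed, so the order by distance was not checked under these settings. These alternatives were added after seeing the data, as were counting shared values once, leaving out the highest gene and a single ranking by mean. With the 10 highest genes of each library ranked on their own, soybean and Arabidopsis overlapped at a difference of 5.42 percentage points (exact permutation p = 0.2). Replicate numbers come from the labels and nothing ties libraries of different species together; with a replicate block the difference from Arabidopsis was 5.95 percentage points with an exact sign-flip permutation p = 0.25, the smallest that 3 pairs allow. The number of libraries and the unknown depth limit every value, and low genes most.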

Other observations

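The 39 listed genes with scaffold IDs had a median of 11.7 FPKM, and 15 of them (38.5%) were variable, against 21.2% of all listed genes. The highest was GLYMA0169S00200, at 64.8, 118 and 21.9 FPKM in libraries 1, 2 and 3. Of the 15 variable ones 10 were highest in library 2, 5 in library 3 and 0 in library 1. Over all variable genes the shares were 45.8% in library 2, 24.7% in library 3 and 29.5% in library 1.

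Along the chromosomes, the listed genes were fewest in the middle of the ID numbering. With each chromosome's ID numbers cut into 10 equal classes, the first class held 2507 genes, the sixth 769 and the last 2755. How many annotated genes carry IDs in each class was not counted, so these are not shares of the genes there. The lowest median level among these classes was 9.06 FPKM, against 9.58 over all listed genes.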
